A study of Mus musculus with 12 samples.

Results

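The genes described here are 44 immediate early and dissociation response genes, taken from a list by symbol and measured in mouse liver sinusoidal endothelial cells (LSECs). All 44 were found among the 24011 genes of the deposited table, each with 1 row. LSECs are the fenestrated, strongly endocytic endothelium of the liver capillaries. The 12 arrays came from 4 genotypes: wild type (WT), mice lacking the scavenger receptor gene Stab1 (Stab1KO) or its relative Stab2 (Stab2KO), and mice that lacked both genes (DKO). Each genotype had 3 arrays, and each array held RNA pooled from 3 mice that were 3 to 4 months old, of strain C57BL/6J per the labels. After perfusion of the liver the cells were bound to CD146 beads, and their RNA was taken straight after the isolation, without culture. The labels do not state how the alleles were made, whether WT and knockout mice were littermates, or how long each isolation took.

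Immediate early genes are transcribed within minutes of a stimulus without new protein synthesis, because their transcription factors are already present in the cell. Serum response factor with its ETS partners acts through CArG boxes, CREB through cyclic AMP response elements, and NF-kB through its own sites. Most of the products are transcription factors (AP-1, EGR and NR4A proteins), and others shut the response off again (dual-specificity phosphatases, inhibitors of NF-kB, mRNA-decay factors). Enzymatic and mechanical release of cells from a tissue is itself a stimulus of this kind, so these transcripts are also read as a mark of tissue dissociation.

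The values are log2 expression on a scale from 2.94 to 13.87, and every array had a median of 5.11. The groups are small, and the number of pools limits the precision. Stab1 lay between 4.98 and 5.45 in the arrays without the gene and between 12.46 and 12.62 in the others, and Stab2 between 5.46 and 7.60 and between 12.99 and 13.09. The mean of 16 LSEC markers besides the stabilins was 12.9 to 13.0 log2 in 11 arrays and 12.7 in DKO replicate 3. That array stood apart: it correlated with the other arrays at 0.956 to 0.968 across genes, while the other 11 correlated with each other at 0.987 or more. As a deviation from the 12-array mean, 16 neutrophil genes averaged 5.30 log2 in it and -1.01 to 0.25 in the rest, and the defining neutrophil genes Ly6g (11.65, against 3.50 to 4.05 elsewhere), Ltf (12.66, against 4.17 to 4.85) and Camp (11.35, against 3.47 to 3.84) were high in this array. Stab2KO replicate 3 stood apart for the genes described here, as given below. The main counts are given with and without each of these arrays. In pooled cell preparations, fewer cells of a type and less RNA per cell cannot be told apart.

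The immediate early genes were high in all 3 DKO pools and, to a smaller extent, in 1 of the 3 Stab2KO pools. Relative to the mean of the 12 arrays, the mean of the 44 genes was 0.61, 0.78 and 0.75 in DKO replicates 1 to 3. It was -0.44, -0.15 and -0.03 in WT, -0.27, -0.47 and -0.34 in Stab1KO, and -0.36, -0.41 and 0.32 in Stab2KO. The median of the 44 genes was 0.63, 0.71 and 0.48 in DKO replicates 1 to 3. DKO replicate 3 was the lowest DKO pool in 26 of the 44, where 46.1% of all genes were lowest in it. Of the 44 genes, 22 were higher in every DKO pool than in any of the other 9 pools, where 2.54% of all genes were. In DKO replicates 1 and 2 alone 34 of the 44 lay above those 9 pools, where 5.67% of all genes did.

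**Figure D1:**
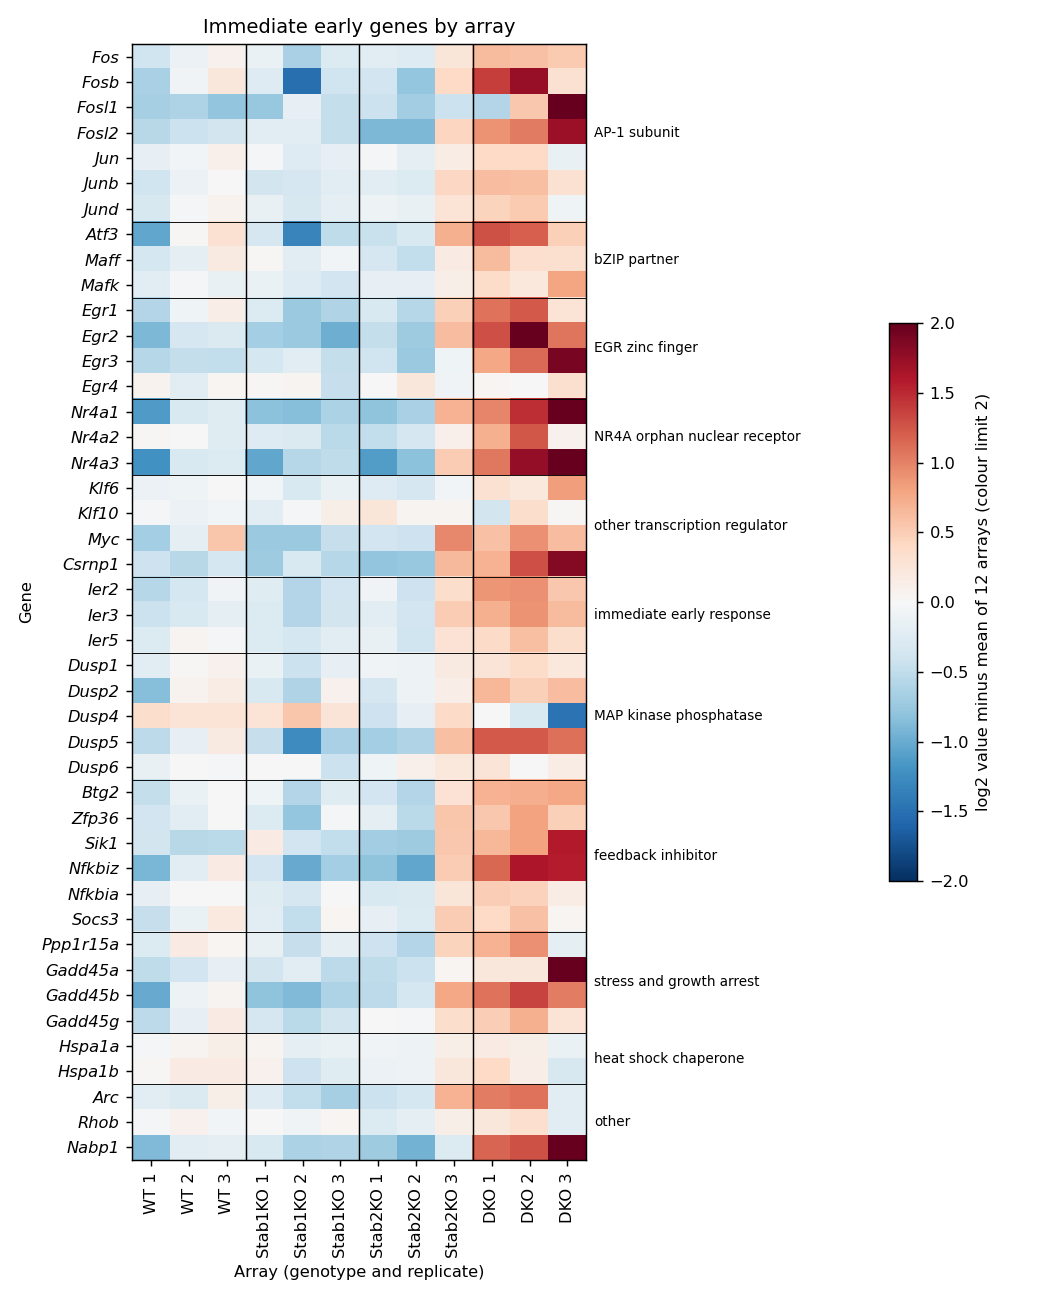
Log2 values of the 44 genes (rows, grouped by role) in the 12 arrays (columns), each minus that gene's mean over the arrays, with colours limited at 2 log2 units. The DKO columns are red for most genes, Stab2KO replicate 3 is red beside 2 blue Stab2KO columns, and Fosl1 and Gadd45a are deep red in DKO replicate 3 alone.

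DKO was compared with WT to see how the response genes differ when both receptors are missing. Of the 44 genes 10 rose and 0 fell at an adjusted p under 0.05, where 1.8% of all genes were called, 0.754% as higher and 1.05% as lower. They were Fosl2, Egr2, Egr3, Nr4a1, Nr4a3, Ier2, Ier3, Csrnp1, Nfkbiz and Nabp1. The differences of the 44 had a median of 0.77 log2, beside -0.02 over all genes, and ran from -0.89 to 2.37. In 33 genes the 3 DKO pools lay above the 3 WT pools without overlap, where 8.97% of all genes did, and in 1, Dusp4, they lay below, where 15% did. Without DKO replicate 3, 6 genes were called, Egr2, Egr3, Ier2, Ier3, Nabp1 and Nr4a2, where 1.04% of all genes rose, and the median was 0.81. Without Stab2KO replicate 3, which enters this comparison through the shared estimate of spread and leaves the differences as they were, 17 genes were called, where 0.929% of all genes rose. They were the same 10 and Fos (adjusted p = 0.0414), Junb (0.0247), Ier5 (0.0458), Btg2 (0.017), Dusp5 (0.0159), Gadd45b (0.0158) and Sik1 (0.0158). The count fell further without a WT array, to 2, 2 and 3 without WT replicates 1, 2 and 3. In these fits 111, 35 and 43 of all genes rose, beside 181 with all 12 arrays. Without DKO replicate 2, 4 were called, where 140 of all genes rose. Egr3 and Nabp1 kept the call without each of the 12 arrays in turn. The other called genes kept it in between 1 (Nfkbiz) and 9 (Egr2) of these 12 fits. All adjusted p-values are from limma with Benjamini-Hochberg adjustment over all 24011 genes, and an exact permutation test of 3 pools against 3 cannot give a p under 0.1.

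**Figure D2:**
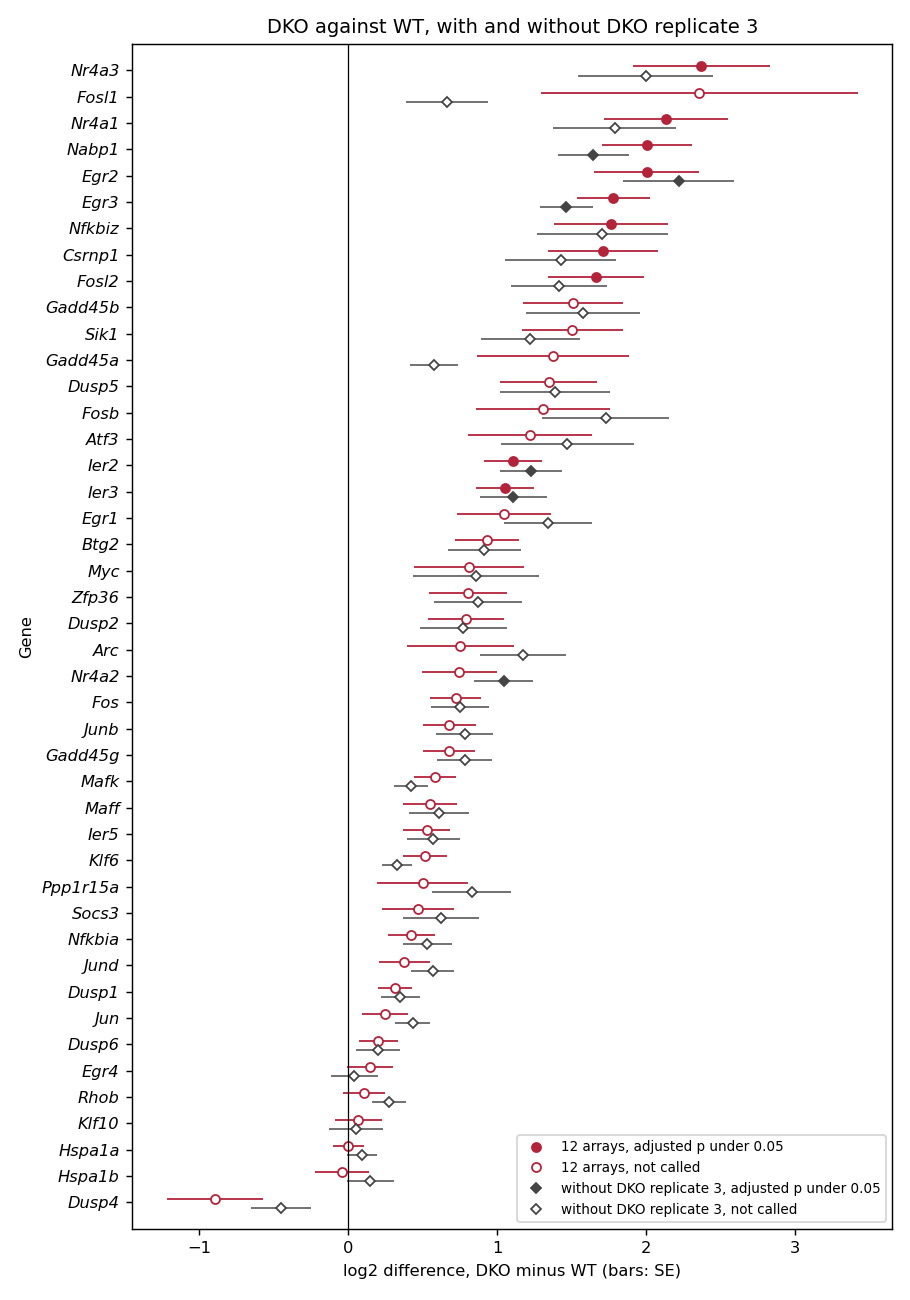
Log2 difference of each of the 44 genes (rows) between DKO and WT with its standard error, from all 12 arrays (circles) and without DKO replicate 3 (diamonds), with filled symbols for an adjusted p under 0.05. For Fosl1 the value drops from 2.36 to 0.67 without that array and for Gadd45a from 1.38 to 0.58, while Egr2, Ier2 and Ier3 lie slightly further from 0 without it.

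The EGR zinc finger factors, which bind GC-rich promoters and carry growth factor signals into transcription, were led by Egr2 and Egr3. Egr2 measured 5.74, 6.30 and 6.35 in WT, 5.95, 5.90 and 5.66 in Stab1KO, 6.16, 5.92 and 7.25 in Stab2KO, and 7.93, 8.77 and 7.70 in DKO. Every DKO pool was above every other pool, with Stab2KO replicate 3 next. Egr2 rose by 2.00 ± 0.35 log2 (SE) in DKO against WT, or 4.01-fold (adjusted p = 0.0209), and by 2.22 without DKO replicate 3 (adjusted p = 0.0178). Egr3 measured 5.26, 5.36 and 5.34 in WT, 5.48, 5.63 and 5.36 in Stab1KO, 5.43, 5.09 and 5.75 in Stab2KO, and 6.60, 6.97 and 7.73 in DKO. Its 9 other pools lay between 5.09 and 5.75, below every DKO pool. Egr3 rose by 1.78 ± 0.25 against WT (adjusted p = 0.00571), and by 1.47 without DKO replicate 3 (adjusted p = 0.00339). Egr1, which was much brighter, measured 10.99, 11.49 and 11.71 in WT and 12.66, 12.81 and 11.85 in DKO. The DKO pools were above the WT pools, with replicate 3 near them, and the difference of 1.05 ± 0.31 did not pass (adjusted p = 0.128, and 0.0522 for 1.34 without DKO replicate 3). Egr4 lay between 3.64 and 4.42 in every pool, with a mean that exceeded that of 31.7% of all genes.

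Among the NR4A orphan nuclear receptors, ligand-independent factors induced by growth factors, cytokines and cyclic AMP, Nr4a1 and Nr4a3 rose. Nr4a1 measured 9.31, 10.13 and 10.20 in WT, 9.62, 9.59 and 9.81 in Stab1KO, 9.63, 9.79 and 11.13 in Stab2KO, and 11.42, 11.92 and 12.71 in DKO. Its DKO pools were above all others, and Stab2KO replicate 3 was nearer to them than to the other Stab2KO pools. Nr4a1 differed by 2.13 ± 0.42 log2 between DKO and WT, or 4.39-fold (adjusted p = 0.0332), and by 1.79 without DKO replicate 3, which did not pass (adjusted p = 0.062). Nr4a3 measured 5.52, 6.42 and 6.46 in WT, 5.69, 6.16 and 6.22 in Stab1KO, 5.61, 5.90 and 7.23 in Stab2KO, and 7.78, 8.48 and 9.25 in DKO. It had the largest called difference of the 44 genes, 2.37 ± 0.46 or 5.17-fold (adjusted p = 0.0315, and 0.0604 for 2.00 without DKO replicate 3). Nr4a2 went the other way with that array: it measured 7.96, 7.94 and 7.69 in WT and 8.65, 9.17 and 8.02 in DKO. Replicate 3 was just above WT, and the difference of 0.75 ± 0.25 passed only without it (adjusted p = 0.168 with it, and 0.0284 for 1.05 without).

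The AP-1 subunits, FOS and JUN proteins that pair on the sequence TGANTCA, have 7 genes in the list, of which Fosl2 was called against WT. Fosl2 measured 8.80, 8.93 and 8.98 in WT, 9.12, 9.13 and 8.88 in Stab1KO, 8.45, 8.46 and 9.78 in Stab2KO, and 10.25, 10.39 and 11.06 in DKO. Stab2KO replicate 3 was above every WT and Stab1KO pool while the other 2 Stab2KO pools were below them. Fosl2 differed by 1.67 ± 0.32 between DKO and WT (adjusted p = 0.0313, and 0.0609 for 1.42 without DKO replicate 3). Fos measured 12.12, 12.41 and 12.60 in WT, 12.39, 11.87 and 12.25 in Stab1KO, 12.29, 12.26 and 12.76 in Stab2KO, and 13.15, 13.10 and 13.04 in DKO. The DKO pools were the 3 highest and close together, and the difference of 0.72 ± 0.17 from WT did not pass (adjusted p = 0.0629). Fosb averaged 10.61 ± 0.45 (SD, n = 3) in WT and measured 12.15, 12.52 and 11.08 in DKO, so that DKO replicate 3 was just above the WT pools (difference 1.31 ± 0.45, adjusted p = 0.177). Jun, Junb and Jund differed by 0.25, 0.68 and 0.38 log2 without passing (adjusted p = 0.454, 0.0857 and 0.301).

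Fosl1, the FRA-1 gene, behaved unlike the rest of its family. It measured 5.17 to 5.80 in the 9 pools of the other genotypes, 5.38 and 6.50 in DKO replicates 1 and 2, and 11.02 in DKO replicate 3. Replicate 3 was far above every other pool and replicate 2 above the other genotypes, and the difference of 2.36 ± 1.06 fell to 0.67 without replicate 3 (adjusted p = 0.299 with it, and 0.308 without). Gadd45a, a stress gene of growth arrest and DNA repair, had the same shape, with 8.51 to 9.07 in the other genotypes, 9.25 and 9.26 in DKO replicates 1 and 2, and 11.65 in replicate 3. Dusp4, a nuclear MAP kinase phosphatase gene, was low there instead: it measured 8.72, 8.65 and 8.64 in WT and 8.38, 8.06 and 6.89 in DKO (difference -0.89 ± 0.32, adjusted p = 0.20). In all, 5 of the 44 genes were more than 1 log2 above the mean of the other 2 DKO pools in replicate 3 and 3 were more than 1 below, where 3.25% and 1.04% of all genes were. The 5 were Fosl1, Gadd45a, Nr4a1, Nr4a3 and Nabp1, and the 3 were Dusp4, Fosb and Arc. The neutrophil genes were high in the same pool, and their part in these values was not tested.

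Ier2 and Ier3, small immediate early response genes, the second of which is a regulator of cell survival, rose by nearly equal amounts. Ier2 measured 9.47, 9.70 and 9.98 in WT, 9.80, 9.46 and 9.67 in Stab1KO, 9.98, 9.63 and 10.40 in Stab2KO, and 10.93, 10.96 and 10.59 in DKO. The DKO pools were above all others, with Stab2KO replicate 3 close to the lowest of them. Ier2 rose by 1.11 ± 0.20 log2 (adjusted p = 0.0217), and by 1.23 without DKO replicate 3 (adjusted p = 0.0185). Ier3 measured 11.31, 11.43 and 11.54 in WT, 11.47, 11.15 and 11.37 in Stab1KO, 11.51, 11.36 and 12.25 in Stab2KO, and 12.44, 12.64 and 12.37 in DKO. Again Stab2KO replicate 3 lay just under the DKO range, and Ier3 rose by 1.05 ± 0.20 (adjusted p = 0.0273, and 0.0367 for 1.11 without DKO replicate 3). Ier5 lay between 9.40 and 9.74 in WT and between 10.04 and 10.28 in DKO, a difference of 0.53 ± 0.16 that did not pass (adjusted p = 0.123).

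**Figure D3:**
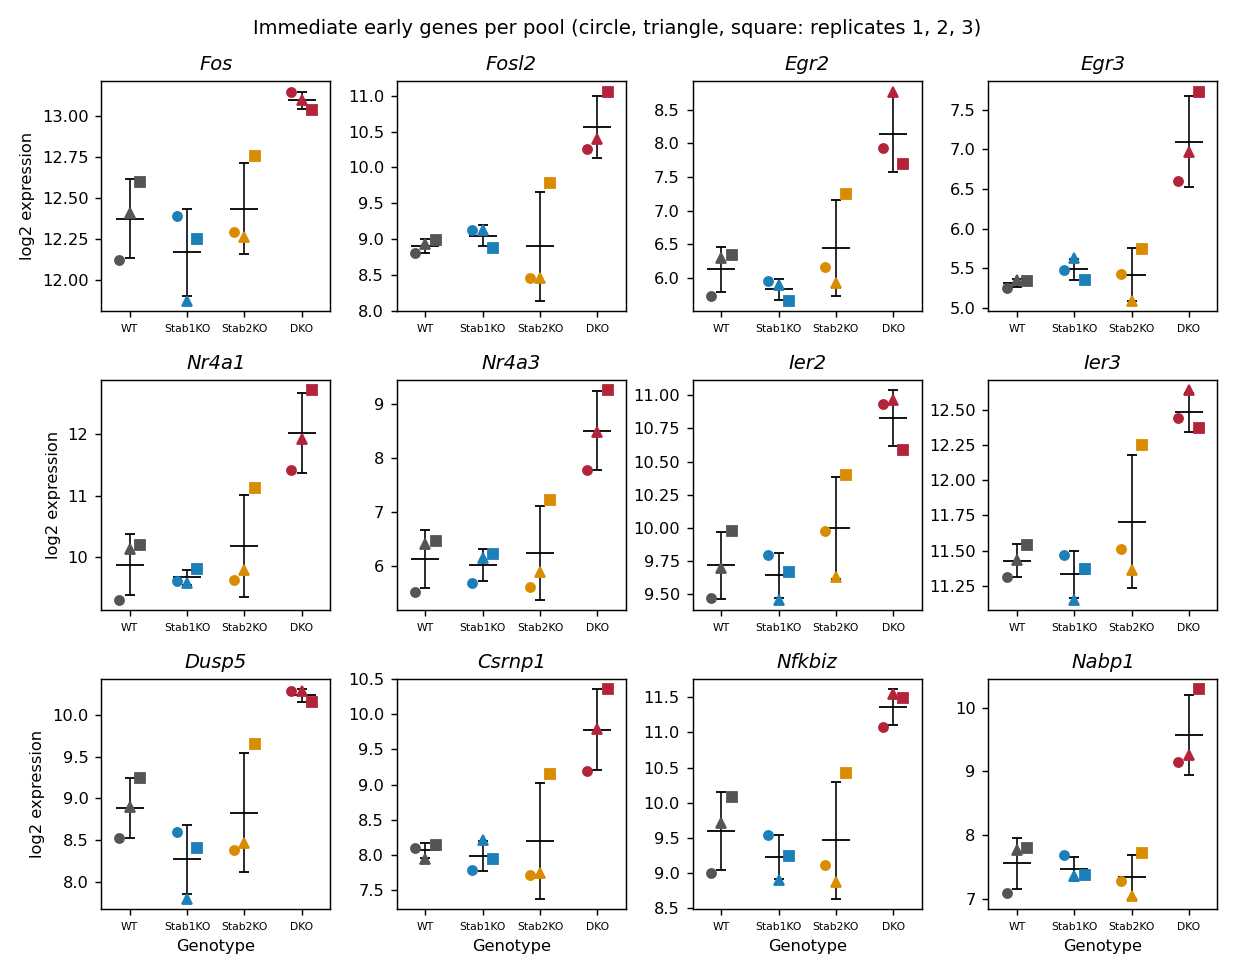
Log2 expression of 12 genes in each pool (circle, triangle and square for replicates 1, 2 and 3), with the mean and SD of each genotype as black lines. In every panel the 3 DKO pools are above the other 9, and the square of Stab2KO is the highest of its group.

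Csrnp1, a nuclear protein gene induced by AXIN, and Nabp1, which encodes a single-strand DNA-binding protein, rose among the remaining nuclear factors. Csrnp1 measured 8.10, 7.95 and 8.15 in WT, 7.79, 8.21 and 7.94 in Stab1KO, 7.72, 7.75 and 9.15 in Stab2KO, and 9.20, 9.79 and 10.35 in DKO. Stab2KO replicate 3 nearly reached the lowest DKO pool, and the difference from WT was 1.71 ± 0.37 (adjusted p = 0.0457, and 0.0925 for 1.43 without DKO replicate 3). Csrnp1 kept this call in 2 of the 12 fits that left out a single array. Nabp1 measured 7.10, 7.77 and 7.81 in WT, 7.69, 7.36 and 7.38 in Stab1KO, 7.28, 7.05 and 7.72 in Stab2KO, and 9.15, 9.26 and 10.29 in DKO. Here Stab2KO replicate 3 lay within the WT range. Nabp1 rose by 2.01 ± 0.30 or 4.02-fold (adjusted p = 0.00997), and by 1.65 without DKO replicate 3 (adjusted p = 0.00877). Klf6, a zinc finger factor of injury responses, measured 10.43, 10.45 and 10.54 in WT, 10.49, 10.24 and 10.41 in Stab1KO, 10.28, 10.21 and 10.48 in Stab2KO, and 10.85, 10.75 and 11.37 in DKO, a difference of 0.52 ± 0.15 that did not pass (adjusted p = 0.109). Myc, the growth-promoting factor, measured 7.48, 7.96 and 8.71 in WT and 8.74, 9.07 and 8.77 in DKO. Its WT pools spread over most of the distance to DKO (0.81 ± 0.37, adjusted p = 0.301). Klf10, a TGF-beta-induced gene, lay between 9.14 and 9.86 in all pools. Of the small MAF and ATF partners of AP-1, Atf3 measured 10.01, 11.08 and 11.35 in WT and 12.32, 12.25 and 11.53 in DKO, with a wide spread in WT (1.22 ± 0.42, adjusted p = 0.175). Mafk measured 8.71, 8.91 and 8.78 in WT, 8.79, 8.67 and 8.55 in Stab1KO, 8.77, 8.77 and 9.04 in Stab2KO, and 9.30, 9.14 and 9.71 in DKO. Its DKO pools were the 3 highest, and the differences of Mafk (0.58) and Maff (0.55) from WT did not pass.

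Of the 6 genes grouped here as feedback inhibitors, 1 was called against WT, Nfkbiz, which encodes an atypical nuclear IkB protein. The group name is only a label of the list, and whether the Nfkbiz product inhibited or promoted the response here was not tested. Nfkbiz measured 9.0, 9.71 and 10.08 in WT, 9.54, 8.91 and 9.24 in Stab1KO, 9.11, 8.88 and 10.42 in Stab2KO, and 11.07, 11.54 and 11.48 in DKO. The DKO pools were above all others, and Stab2KO replicate 3 came next. Its difference from WT was 1.76 ± 0.38, or 3.40-fold (adjusted p = 0.0477, and 0.0882 for 1.71 without DKO replicate 3). Of the 12 fits that left out a single array, Nfkbiz kept the call in 1, that without Stab2KO replicate 3 (adjusted p = 0.0125). The highest adjusted p among these fits was 0.147. Nfkbia, the classical inhibitor of NF-kB, lay between 11.37 and 11.53 in WT and between 11.68 and 12.02 in DKO (0.42 ± 0.16, adjusted p = 0.203). Btg2, an antiproliferative gene that promotes mRNA deadenylation, measured 10.45, 10.80 and 10.94 in WT, 10.84, 10.34 and 10.69 in Stab1KO, 10.55, 10.34 and 11.22 in Stab2KO, and 11.63, 11.65 and 11.71 in DKO. Its DKO pools were close together and all above WT, yet the difference of 0.93 ± 0.21 did not pass (adjusted p = 0.0573). Sik1, a salt-inducible kinase gene that restrains CREB coactivators, measured 8.58, 8.39 and 8.42 in WT and 9.61, 9.76 and 10.53 in DKO (1.51 ± 0.34, adjusted p = 0.0532). Zfp36, the AU-rich element mRNA-decay factor, and Socs3, the inhibitor of cytokine receptor signalling, differed by 0.81 and 0.47 without passing (adjusted p = 0.156 and 0.36).

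None of the 5 MAP kinase phosphatase genes, whose products dephosphorylate ERK, p38 and JNK, was called against WT in the fit of all 12 arrays. Dusp5, an ERK-specific nuclear phosphatase gene, measured 8.53, 8.89 and 9.24 in WT, 8.60, 7.80 and 8.41 in Stab1KO, 8.38, 8.46 and 9.65 in Stab2KO, and 10.28, 10.28 and 10.15 in DKO. The DKO pools were tightly grouped above the others, and the difference of 1.35 ± 0.32 did not pass (adjusted p = 0.0658), but did without Stab2KO replicate 3 (adjusted p = 0.0159). Dusp1, an early stress phosphatase gene, was near the top of the scale, at 13.21 to 13.50 in WT and 13.63 to 13.79 in DKO. Dusp2 measured 6.41, 7.33 and 7.41 in WT and 7.92, 7.73 and 7.87 in DKO, and Dusp6, the cytoplasmic ERK phosphatase gene, differed by 0.20 ± 0.13. Of the stress genes, Gadd45b measured 9.35, 10.26 and 10.41 in WT, 9.55, 9.47 and 9.74 in Stab1KO, 9.84, 10.01 and 11.14 in Stab2KO, and 11.45, 11.71 and 11.39 in DKO. Its difference from WT was 1.51 ± 0.34 (adjusted p = 0.0521), with WT replicate 1 well below the other 2 WT pools. Gadd45g measured 10.47, 10.83 and 11.16 in WT, 10.66, 10.46 and 10.64 in Stab1KO, 10.99, 10.96 and 11.35 in Stab2KO, and 11.50, 11.71 and 11.28 in DKO. DKO replicate 3 was below Stab2KO replicate 3, and Gadd45g differed by 0.68 ± 0.18 from WT (adjusted p = 0.0839) and Ppp1r15a, whose product reverses the block of translation under stress, by 0.50 ± 0.31 (adjusted p = 0.449).

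The heat shock genes Hspa1a and Hspa1b, which encode the inducible HSP70 chaperones, did not take part in the DKO pattern. Hspa1a lay between 13.50 and 13.87 in all 12 pools and Hspa1b between 12.54 and 13.35, and they differed by 0.00 ± 0.11 and -0.04 ± 0.18 between DKO and WT (adjusted p = 0.993 and 0.945). The highest value of the whole table was 13.87, so a rise of Hspa1a would have little room on this scale. These genes are near-identical copies, so the division of signal between them is uncertain. Rhob, which encodes a small GTPase of endosomes, lay between 11.16 and 11.77, and Arc, known as an activity-regulated gene of neurons, measured 7.40, 7.32 and 7.73 in WT and 8.63, 8.69 and 7.40 in DKO. DKO replicate 3 lay within the WT range of Arc.

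Promoter sequences are shown for members called in at least 1 comparison, with 1 RefSeq start site in GRCm38.p6 and at least 1 searched motif, in the order of their lowest adjusted p. They are the 250 bases before the start site, 5′ to 3′ on the gene's strand, with the motifs in capitals.
Dusp5, chr19:53528895-53529144, plus strand: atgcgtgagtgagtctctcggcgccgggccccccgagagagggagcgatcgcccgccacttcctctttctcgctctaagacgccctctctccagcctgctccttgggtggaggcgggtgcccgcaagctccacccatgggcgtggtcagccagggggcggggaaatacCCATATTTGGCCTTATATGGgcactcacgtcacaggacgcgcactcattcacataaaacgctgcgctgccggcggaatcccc
Fosl2, chr5:32136222-32136471, plus strand: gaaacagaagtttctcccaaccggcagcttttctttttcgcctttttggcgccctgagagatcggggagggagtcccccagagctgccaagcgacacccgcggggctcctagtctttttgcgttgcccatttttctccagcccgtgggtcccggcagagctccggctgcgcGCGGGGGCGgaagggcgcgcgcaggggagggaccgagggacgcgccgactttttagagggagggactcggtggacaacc
Gadd45b, chr10:80929841-80930090, plus strand: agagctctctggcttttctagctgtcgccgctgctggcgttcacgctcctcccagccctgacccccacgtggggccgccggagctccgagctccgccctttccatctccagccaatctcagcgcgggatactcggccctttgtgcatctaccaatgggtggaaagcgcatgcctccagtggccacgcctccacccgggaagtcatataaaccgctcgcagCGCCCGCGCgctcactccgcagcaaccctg
Nr4a1, chr15:101266596-101266845, plus strand: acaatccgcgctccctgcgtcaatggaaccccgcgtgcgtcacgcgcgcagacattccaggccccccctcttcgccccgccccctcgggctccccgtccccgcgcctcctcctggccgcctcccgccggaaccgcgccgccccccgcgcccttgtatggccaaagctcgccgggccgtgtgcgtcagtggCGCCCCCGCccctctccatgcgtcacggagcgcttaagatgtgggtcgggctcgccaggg
Btg2, chr1:134079156-134079405, minus strand: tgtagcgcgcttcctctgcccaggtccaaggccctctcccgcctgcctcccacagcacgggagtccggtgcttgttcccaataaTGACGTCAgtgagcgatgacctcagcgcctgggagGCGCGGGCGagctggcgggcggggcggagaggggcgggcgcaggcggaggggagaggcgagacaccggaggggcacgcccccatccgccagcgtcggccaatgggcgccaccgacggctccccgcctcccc
The set of RefSeq promoters available here held 34 of the 44 genes, and the other 10 were not searched. The motifs searched on both strands were the CArG box of serum response factor, the cyclic AMP response element TGACGTCA, the AP-1 site TGANTCA and the EGR site GCGNGGGCG, and none of the matches shown overlaps another. The Dusp5 window holds 2 adjacent CArG boxes, CCATATTTGG and CCTTATATGG, ending 63 bases before the start. CArG boxes were found in 3 of the 34 genes (Dusp5, Egr2 and Zfp36), or 8.82%, against 1.62% of all 27025 genes with a listed promoter. For Egr2, 4 of 5 listed starts had one within 250 bases upstream. EGR sites were found in 11 of the 34, or 32.4% against 5.33%, among them Fosl2, Nr4a1, Gadd45b and Btg2. TGACGTCA was found in 4 (Btg2, Dusp1, Maff and Ppp1r15a), or 11.8% against 1.77%, and TGANTCA in 1 (Csrnp1), or 2.94% against 7.82%. A match is only a run of letters in this window, and distant elements lie outside it.

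DKO was also compared with each single knockout, to see what loss of the second receptor adds. These 3 comparisons share the DKO pools, so they are not independent of each other. Against Stab1KO 13 of the 44 genes rose and 0 fell, where 0.546% of all genes rose and 0.4% fell, with a median of 1.00 log2 beside -0.03 over all genes. Against Stab2KO 12 rose and 0 fell, where 3.42% of all genes were called, 1.3% as higher and 2.12% as lower, with a median of 0.67 beside -0.03. The genes called in all 3 comparisons were Egr2, Egr3, Nr4a1, Nr4a3, Ier2, Nfkbiz and Nabp1. Without DKO replicate 3, Egr2, Egr3, Ier2 and Nabp1 were called in all 3, while Nr4a3 (adjusted p = 0.0604, 0.0548 and 0.0532 against WT, Stab1KO and Stab2KO) and Nfkbiz (0.0882, 0.0503 and 0.0515) passed in none and Nr4a1 passed against Stab1KO alone (0.0479). Called against Stab1KO and not against WT were Fos (0.93 ± 0.17, adjusted p = 0.0356), Dusp5 (1.96 ± 0.32, adjusted p = 0.0272), Mafk (0.72 ± 0.14, adjusted p = 0.0434), Gadd45b (1.93 ± 0.34, adjusted p = 0.0293) and Gadd45g (0.91 ± 0.18, adjusted p = 0.0409). Called against Stab2KO and not against WT were Btg2 (0.96 ± 0.21, adjusted p = 0.0407), Klf6 (0.67 ± 0.15, adjusted p = 0.039) and again Dusp5 (1.40 ± 0.32, adjusted p = 0.0447). Of these, Btg2 (0.069) and Dusp5 (0.0641) did not pass against Stab2KO without DKO replicate 3. Against Stab1KO the 3 DKO pools were above without overlap in 34 of the 44 genes, where 6.88% of all genes were, and against Stab2KO in 22, where 7.37% were. The counts moved with single arrays. Against Stab1KO it was 17 without DKO replicate 3, where 1.12% of all genes rose, and 21 without Stab2KO replicate 3, where 0.696% rose. It was 5 and 4 without DKO replicates 1 and 2, where 60 and 109 of all genes rose, beside 131 with all arrays. Without Stab1KO replicate 1 it was 7, where 107 rose. Without Stab1KO replicate 2 or replicate 3 it was 0, where 9 and 12 of all genes rose. Against Stab2KO it was 9 without DKO replicate 3, where 1.96% rose, and 22 without Stab2KO replicate 3, where 1.19% rose. It was 1 without Stab2KO replicate 1 and 0 without its replicate 2, where 33 and 18 of all genes rose. With all arrays 313 of all genes did.

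Neither single loss changed a gene of the list by the test. In Stab1KO against WT 0 of the 44 were called, where 0.308% of all genes were, and 0 had an unadjusted p under 0.05 in limma. The differences ran from -0.62 for Dusp5 to 0.25 for Sik1, with 37 of the 44 below 0 and a median of -0.13, beside 0.005 over all genes. The pools did not separate: in 1 gene, Nr4a2, the Stab1KO pools lay below the WT pools, where 4.72% of all genes did, and in 0 genes above, where 5.36% did. In Stab2KO against WT 0 of the 44 were called, where 0.296% of all genes were, and 0 had an unadjusted p under 0.05 in limma. The median was 0.07 with Stab2KO replicate 3 and -0.17 without it, and 29 of the 44 genes were above 0 with it against 7 without. Klf10 was the single gene whose Stab2KO pools lay above the WT pools without overlap, where 8.09% of all genes did, and in 0 genes they lay below, where 7.63% did. Stab1KO against Stab2KO gave 0 called and 2 with an unadjusted p under 0.05 in limma, where 0.108% of all genes were called. The Stab1KO pools lay below the Stab2KO pools without overlap in 5 of the 44 genes, where 6.61% of all genes did, and above in 0, where 6.04% did.

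Stab2KO replicate 3 was the highest of the 3 Stab2KO pools in 41 of the 44 genes, as it was in 38.6% of all genes. It was more than 0.5 log2 above the mean of the other 2 in 28 of the 44 and below by that much in 0, where 4.53% and 4.78% of all genes were. The largest gaps were in Nr4a3 (1.47), Nfkbiz (1.42), Nr4a1 (1.42), Csrnp1 (1.42), Myc (1.36) and Fosl2 (1.32). In 38 of the 44 genes this pool lay above all 3 WT pools, where 33.1% of all genes did. Stab2KO replicates 1 and 2 lay above the WT pools in 3 genes each, where 29.9% and 30.3% of all genes did, and below them in 14 and 22, where 28.6% and 28.2% did. In 34 of the 44 it was above the other 2 Stab2KO pools and below DKO replicates 1 and 2. The share of all genes in that position was not counted, so how unusual this is remains unknown. Stab2 measured 6.26 in this pool, against 7.40 and 6.76 in the other 2. Its neutrophil list mean was -0.13, against -0.95 and -0.90 in the other Stab2KO pools, and its cholangiocyte list mean was 0.14, against -0.44 and -0.25. Within the cholangiocyte list Cldn4 had by far the largest gap (6.86, against 5.42 and 5.28). Krt19 was not raised (5.62, against 5.62 and 5.76), and the remaining genes were higher by smaller amounts in this pool. Of the 16 neutrophil genes, 14 were highest of the Stab2KO pools in it, among them Retnlg (6.86, against 4.87 and 4.92), S100a8 (7.74, against 6.12 and 6.38) and Csf3r (8.33, against 6.97 and 6.99), while Ly6g (3.74), Camp (3.79) and Ltf (4.44) were near their level in the other Stab2KO pools. The part of these cells in the difference was not tested.

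WT and Stab1KO pools also differed among themselves. WT replicate 1 was the lowest WT pool in 35 of the 44 genes and WT replicate 3 the highest in 31, where 30.5% and 31.5% of all genes were lowest or highest in them. Stab1KO replicate 2 was the lowest of its group in 27 of the 44, where 34.7% of all genes were. Atf3 and Gadd45b were among the genes with a low value in WT replicate 1. The median SD within genotypes was 0.34 log2 for the 44 genes and 0.15 for all genes. After each genotype's mean was taken off, the 946 pairs of the 44 genes had a median correlation of 0.53 over the 12 arrays, 0.70 without DKO replicate 3, 0.29 without Stab2KO replicate 3 and 0.39 without both. Over the 12 arrays 14 of the 44 genes correlated with the mean of the other 43 at over 0.8, and without Stab2KO replicate 3 it was 6. The pairs share arrays and hence any shift of an array as a whole. Such correlations were not computed for all genes or for other lists, so whether they are particular to these genes is unknown. Nfkbiz followed the mean of the other 43 genes most closely, at 0.99, then Btg2 (0.95) and Ier3 (0.93), while Egr4 (-0.32), Fosl1 (-0.06) and Klf10 (-0.03) did not follow it.

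The departure from additivity asks whether the effect of losing Stab1 differs with and without Stab2. The difference between DKO and Stab2KO, minus that between Stab1KO and WT, was above 0 for 42 of the 44 genes, with a median of 0.89 log2 beside -0.04 over all genes. In limma 0 of the 44 were called, where 0.05% of all genes were, although 28 had an unadjusted p under 0.05. The share of all genes with such an unadjusted p is not given here for this or the other comparisons. How unusual these unadjusted counts are therefore remains unknown. Nabp1 came nearest, at 2.30 ± 0.43 (adjusted p = 0.079). Without Stab2KO replicate 3, 4 genes were called, Dusp5 (2.43, adjusted p = 0.0298), Fosl2 (1.97, adjusted p = 0.0371), Nfkbiz (2.74, adjusted p = 0.0386) and Ier3 (1.15, adjusted p = 0.0386), where 0.233% of all genes were. Without DKO replicate 3, Nr4a2 (1.52, adjusted p = 0.0466) and Nabp1 (1.94, adjusted p = 0.0376) were called, where 0.466% of all genes were. Whether a non-additive effect is called thus depended on which of the outlying pools entered the fit.

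Related lists moved with the 44 genes to different degrees. In DKO against WT 0.754% of all genes rose and 1.05% fell, with a median of -0.02 log2. Of 29 other dissociation response genes, 4 rose and 0 fell in this comparison, with a median of 0.49 log2. They were the antiproliferative genes Tob1 (1.44 ± 0.21, adjusted p = 0.00775) and Btg1 (0.93 ± 0.19, adjusted p = 0.0384), the cyclin gene Ccnl1 (1.00 ± 0.19, adjusted p = 0.0269) and Pnrc1 (0.67 ± 0.11, adjusted p = 0.0152), a nuclear receptor coactivator gene. Of 19 NF-kB primary response genes, 2 rose and 0 fell, with a median of 0.71: Tnfaip3 (1.35 ± 0.28, adjusted p = 0.0382), which encodes the ubiquitin-editing inhibitor A20, and Birc3 (0.59 ± 0.12, adjusted p = 0.0423). Without DKO replicate 3 these lists had 5 and 4 called genes, where 1.04% of all genes rose. Of those named only Tob1 (adjusted p = 0.0185) and Pnrc1 (0.0314) were among them, and Ccnl1 (0.0513), Btg1 (0.0712), Tnfaip3 (0.0706) and Birc3 (0.0855) were not. The signalling components that activate immediate early genes were not called: of 13 genes of the SRF and ERK route 0 passed, with a median of 0.06, and Srf itself differed by 0.33 ± 0.13 (adjusted p = 0.237). Of 12 ERK feedback genes 0 passed, with a median of 0.19, and Errfi1 differed by 0.77 ± 0.28 (adjusted p = 0.207). Of 13 other heat shock chaperone genes 0 passed, with a median of 0.15, and Hsp90aa1 differed by -1.09 ± 0.31 (adjusted p = 0.105).

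Markers of other cells were set beside these values. The cholangiocyte list of 7 genes moved with the DKO pools: its mean relative to the 12 arrays was 0.72 to 1.03 in DKO and -0.71 to 0.14 in the other pools. Of the 7, 4 rose against WT (Muc1, Sox9, Epcam and Krt19), where 0.754% of all genes did. Without DKO replicate 3, 2 of the 7 were called, where 1.04% of all genes rose. Of those 4 only Muc1 was called then (adjusted p = 0.0267, against 0.0697 for Sox9 and 0.0742 for Epcam). Krt19, a keratin of bile duct epithelium, rose by 1.23 ± 0.25 (adjusted p = 0.0358), and by 1.00 without DKO replicate 3, which did not pass (adjusted p = 0.0659). The 15 large-vessel endothelial genes had a mean of 0.03 to 0.27 in DKO and -0.51 to 0.12 elsewhere. Of them 5 rose against WT, or 4 without DKO replicate 3, beside the same shares of all genes. The neutrophil list mean was -0.13 and 0.25 in DKO replicates 1 and 2. It was lower in WT (-1.01, -0.85 and -0.61), Stab1KO replicate 1 (-0.88) and Stab2KO replicates 1 and 2 (-0.95 and -0.90). In Stab1KO replicates 2 and 3 it was 0.09 and -0.18, where the 44 genes were at -0.47 and -0.34. In Stab2KO replicate 3 it was -0.13, where they were at 0.32. Without DKO replicate 3 the neutrophil genes had a median of 0.96 log2 in DKO against WT, and 1 of 16 was called. Stellate cell genes were lower in all 3 knockout genotypes (-0.64 to -0.06) than in WT (0.93 to 1.46), and the 44 genes were not. Of 14 T and natural killer cell genes, 15 Kupffer cell genes and 11 hepatocyte genes, 0 were called in DKO against WT, where 1.8% of all genes were. For lists this small, 0 is close to that share, and their means varied between pools. The Kupffer cell mean was -0.687, 1.346 and 0.655 in WT replicates 1 to 3, -1.058 to -0.641 in Stab2KO, and -0.275, 0.783 and -0.065 in DKO. In WT replicates 1 to 3 the hepatocyte mean was -0.499, 0.636 and 0.039, and the T and natural killer cell mean -0.567, -0.302 and 0.171. The part of any of these cells in the immediate early values was not tested.

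**Figure D4:**
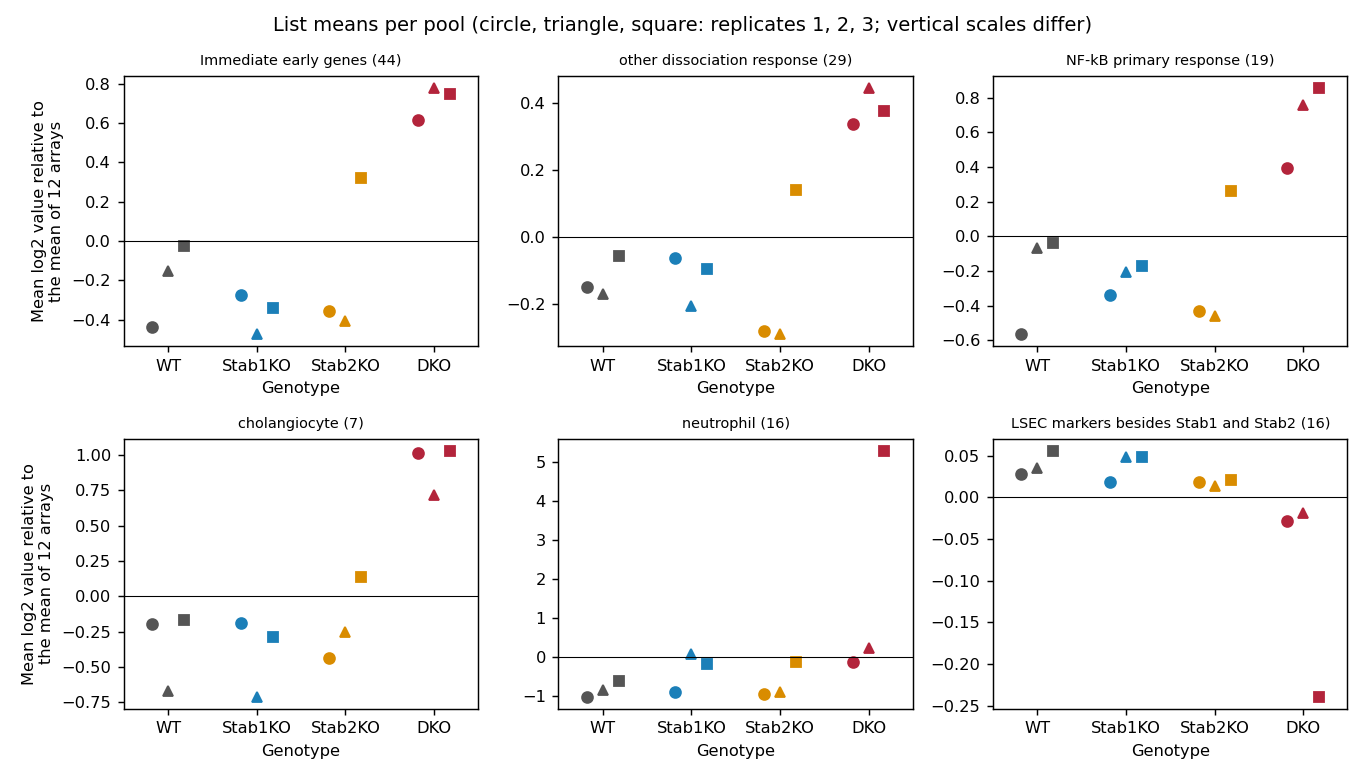
Mean of 6 gene lists in each pool relative to the mean of the 12 arrays, in log2 units (circle, triangle and square for replicates 1, 2 and 3; vertical scales differ between panels). Stab2KO replicate 3 is raised in the first 4 panels, at 0.32 for the immediate early genes, and the neutrophil panel has DKO replicate 3 alone at 5.30.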

How the data were processed

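Expression arrays of bead-isolated LSECs were used, 12 in all and 3 per genotype. The deposited values are log2 expression, with 1 row per gene identifier, and the authors made them with RMA per the submitters' processing notes (background correction, quantile normalization, probe summary). RMA version and genome build were not given in the sources used here. Normalization between arrays removes any shift shared by all genes.

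Of 24973 rows, 24015 had 1 symbol in the platform annotation, 0 had several and 958 are unnamed here. The row with the highest mean was kept per symbol. The model was limma 3.58.1 in R 4.3.3, with 4 group means over 12 arrays, two-sided moderated tests and Benjamini-Hochberg adjustment over 24011 genes in each of 7 contrasts. On simulated arrays for DKO against WT (24011 genes), 22% of genes raised by 0.5 log2, 84% raised by 1 and 98% raised by 2 were recovered, with 16 false calls among 160. The simulated noise was normal and independent between genes, without an outlying array. The raised genes were drawn from all genes, whose median SD within genotypes was 0.15 log2, against 0.34 for the 44. These rates are therefore not recovery rates for the 44 genes.

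The members, lists, motifs and tests were chosen with earlier results of these data known. All 44 members are accounted for, values per pool were given for members called in any contrast and for uncalled members of each role, and up to 4 called genes of other lists, or else up to 2 with the largest difference, were named. Ly6g, Ltf, Camp, S100a8 and Csf3r were added after their values were seen. Pools are separate biological replicates per the labels. Alternatives were a replicate block, a low-signal filter (genes above the 40th percentile of means), trend and robust moderation, array weights, only the compared arrays, a further quantile normalization, every row, a minimum difference of 1 log2 and each array left out.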

Additional observations from a re-analysis of the deposited data

How the results depend on the processing

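The number of the 44 genes called was 10 in DKO against WT, 13 in DKO against Stab1KO and 12 in DKO against Stab2KO, and every call in these and in the alternatives was a rise. With array weights, which gave DKO replicate 3 a weight of 0.25 and Stab2KO replicate 3 one of 0.47, the counts were 26, 26 and 29, and 6 for the departure from additivity instead of 0. With only the compared arrays, which leaves fewer residual degrees of freedom, they were 1, 3 and 0. Leaving out each array in turn gave 2 to 17 in DKO against WT, 0 to 21 in DKO against Stab1KO, 0 to 22 in DKO against Stab2KO and 0 to 4 for the departure from additivity. The replicate block gave 12, 14 and 11, and it called 0 members in the other 4 contrasts. Same-numbered arrays had deviations correlated above 0.1 in 4 of 18 pairs (-0.06 to 0.29), so the numbers were not taken to pair the pools. The low-signal filter, which 43 of the 44 genes passed, gave 15, 19 and 15, trend and robust moderation 9, 15 and 9, and a minimum difference of 1 log2 gave 10, 10 and 9. In Stab1KO against WT, Stab2KO against WT and Stab1KO against Stab2KO the count was 0 under every alternative. No called difference changed sign. Over all genes, the 432 calls in DKO against WT became 1111 with array weights, 97 with only the compared arrays, 151 with the minimum difference and 125 to 510 when single arrays were left out. The 227 in DKO against Stab1KO and 822 in DKO against Stab2KO became 466 and 1789 with array weights and 18 and 4 with only the compared arrays. When single arrays were left out they became 22 to 357 and 45 to 854. The array weights put less weight on the outlying pools, and the smaller fits have fewer residual degrees of freedom. The cause of each change was not tested. Without scanner intensities, signal over background is unknown, which limits Egr4 most.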
